A study of Oryctolagus cuniculus with 18 samples.

Results

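In the atherosclerotic rabbit aorta the transcripts of the alpha v integrin chains ITGAV and ITGB5 fell relative to that of their ligand vitronectin (VTN). On the deposited scale both chains fell and VTN rose, although the call of ITGAV was lost when the reference gene LDHA was dropped and in raw Ct. VTN was read close to the detection limit, and 2 of its control wells were below the measurable range. For the ligand tenascin C (TNC) no difference was called on the deposited scale, while TNC was called lower under 2 other reference levels, and ITGB6 was below the measurable range in every rabbit. These 5 genes were taken by symbol from the 84 genes of interest on a rabbit wound healing PCR array. They comprise 3 receptor chains and 2 ligands, and the rule that picks them is their symbol, with no threshold on a measured value.

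The lower abdominal aorta was the source of the RNA, from 9 control and 9 atherosclerotic rabbits, all male New Zealand White rabbits aged 11 weeks at the start. The control group ate normal chow and had no surgery. The atherosclerotic group ate a diet with 0.30% cholesterol for 8 weeks and then one with 0.15% cholesterol for 12 weeks by the labels, while the outline in the methods gives a longer time on the later diet. Its aorta was also denuded with a balloon catheter in 2 operations, so diet and injury cannot be told apart. Samples are named here by the number of the rabbit, with 1 well per gene and rabbit.

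Integrins are pairs of an alpha and a beta chain that anchor cells to the extracellular matrix and signal into the cell. The alpha v chain, encoded by ITGAV, joins several beta chains, among them beta 5 (ITGB5) and beta 6 (ITGB6), and these receptors recognise the RGD motif of matrix proteins. The alpha v beta 5 receptor is known for binding vitronectin, a glycoprotein of plasma and matrix that is made mainly in the liver. Alpha v beta 6 is mainly a receptor of epithelial cells that binds latent TGF beta, fibronectin and tenascin C. Tenascin C is a matrix glycoprotein that smooth muscle cells make during growth and repair of the artery wall.

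Values are ratios, 2 to the power of minus deltaCt, of a gene to the level of 5 reference genes in the same rabbit. Ct is the PCR cycle at which a well crosses the detection threshold, and 1 unit on the log2 scale is a doubling. A well at Ct 35 or later, or with no Ct, was held at 35 by the authors and gives only an upper limit, here called a well at the ceiling. Group differences are atherosclerotic minus control on the log2 scale from limma across the 84 genes, called at an adjusted p under 0.05. On the whole array 60.7% of the genes were called, 38.1% higher and 22.6% lower, and the median difference was 0.37. Of the 4 measured members, 2 were called lower and 1 higher, numbers too small to set beside the shares for the array, and their median difference was -0.74.

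The reference level of control rabbit 3 was late, at 24.53 cycles against at most 22.82 in the other control rabbits, and that of atherosclerotic rabbit 20 was early, at 19.79 cycles against at least 22.65 in its group. The aorta carried its smooth muscle markers. The summed ratio of ACTA2, ACTC1 and transgelin (TAGLN, listed as LOC100009332) ran from 25.2 to 36.9 in the control group. In the atherosclerotic group it ran from 1.31 to 13.6 with a median of 3.58. The highest ACTA2 ratio of that group, 11.6 in rabbit 20, stood beside a group median of 1.77. Transgelin alone ran from 12.3 to 19.4 in the control group and from 0.776 to 4.53 in the atherosclerotic group. ACTA2 is itself 1 of the 5 reference genes, so differences are also given with it left out.

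ITGAV, the chain shared by all alpha v receptors, had a ratio of 0.275 ± 0.0678 in control rabbits and 0.152 ± 0.0424 in atherosclerotic rabbits (mean ± SD, n = 9 each). The control rabbits ran from 0.180 to 0.362 with a median of 0.260. The atherosclerotic rabbits ran from 0.100 to 0.236 with a median of 0.139. All 9 atherosclerotic rabbits lay below the control median and 7 of them below every control rabbit, while the ranges overlapped. The log2 difference was -0.86 (standard error 0.21, 95% interval -1.30 to -0.43), which is 1.82-fold lower (adjusted p = 0.0011 from limma). With LDHA dropped as a reference it was -0.31 (adjusted p = 0.17 from limma), and in raw Ct it was -0.90 (adjusted p = 0.15 from limma), and neither was called.

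ITGB5, the beta chain of the vitronectin receptor alpha v beta 5, showed the larger fall. Its ratio was 0.119 ± 0.0434 in control rabbits and 0.0415 ± 0.0181 in atherosclerotic rabbits (mean ± SD, n = 9 each). Control rabbits ran from 0.0549 to 0.188 with a median of 0.116. Atherosclerotic rabbits ran from 0.0197 to 0.0697 with a median of 0.0386. The highest atherosclerotic value, in rabbit 2, lay above the lowest control value, in rabbit 21, and 7 of the 9 atherosclerotic rabbits were below every control rabbit. The log2 difference of -1.55 (standard error 0.30, 95% interval -2.16 to -0.93) is 2.92-fold lower (adjusted p = 0.00012 from limma).

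**Figure D1:**
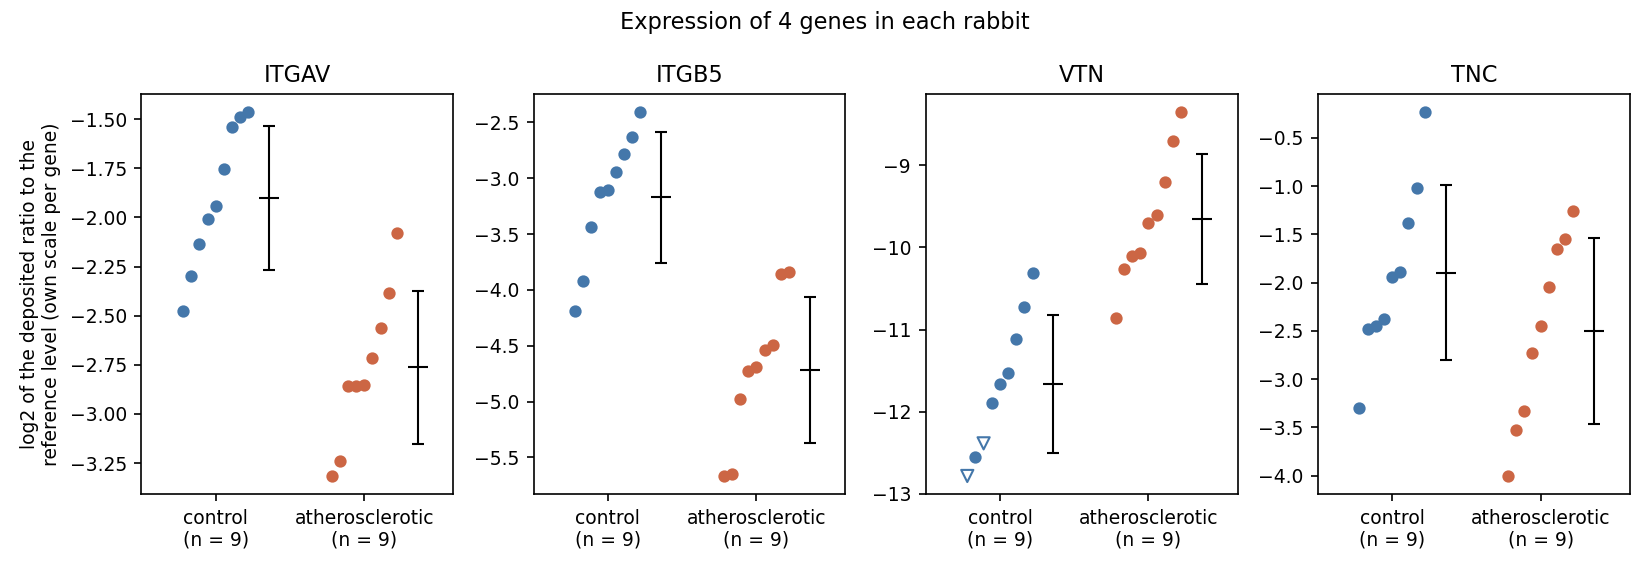
Log2 of the deposited ratio (vertical axis, own scale for each gene) in the 9 control and 9 atherosclerotic rabbits, 1 point per rabbit in order of value, with open triangles for wells at the ceiling and bars for mean ± SD. ITGAV and ITGB5 lie lower and VTN higher in the atherosclerotic group, and the TNC ranges share most of their span, with means of -1.90 and -2.50.

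Within the same rabbit, the 2 receptor chains can be compared without any reference level, since it cancels in their difference. The starting value of such a difference depends on the 2 PCR assays, so only its change between the groups is compared, by exact two-sided permutation tests over the rabbits with p adjusted over all 3486 pairs of genes on the array. ITGAV minus ITGB5 was 1.27 ± 0.44 in control rabbits and 1.95 ± 0.32 in atherosclerotic rabbits (mean ± SD, n = 9 each). The change of 0.68 means that ITGB5 lost 1.61-fold more than ITGAV (exact permutation p = 0.0028, adjusted p = 0.0056). The control rabbits ran from 0.83 to 2.18 and the atherosclerotic rabbits from 1.46 to 2.41, so the groups overlapped. Pairs called at an adjusted p under 0.05 made up 66.1% of all pairs.

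ITGB1 encodes beta 1, which also pairs with alpha v and with many other alpha chains. By the SD of the within-rabbit difference over all 18 rabbits, ITGB1 had the pattern most like ITGAV among 62 genes below the ceiling in every rabbit, with an SD of 0.26 where the median gene had 1.12. PDGFA, a growth factor chain for smooth muscle cells and fibroblasts, came next with 0.37, and ITGB5 ranked 5 with 0.51. For ITGB5 the most alike genes were ITGB1 with an SD of 0.48 and the growth factor receptor gene EGFR with 0.48. That SD spans both groups, so a gene with a small SD also has a small change between them, and the changes are given as a description with no test. ITGAV minus ITGB1 differed by 0.09 between the groups and ITGB5 minus ITGB1 by -0.59.

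ITGB6, the chain that with alpha v forms a receptor best known from epithelium, had no well below Ct 35 in any of the 18 rabbits. In the control group 7 wells had no Ct and 2 crossed late, at 36.42 and 36.93 cycles. In the atherosclerotic group 5 wells had no Ct and 4 crossed late, at 35.01, 35.12, 36.67 and 36.81 cycles. The deposited ratios of ITGB6 are therefore the ceiling of each rabbit and no measured levels. They were lowest in rabbit 20 at 2.6e-05, where the reference level was early, and highest in rabbit 3 at 0.000707, where it was late. No difference between the groups can be given for ITGB6 at this depth. EGF, the other gene fixed as an epithelial marker and read on the array, was at the ceiling in 8 control and 9 atherosclerotic wells.

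**Figure D2:**
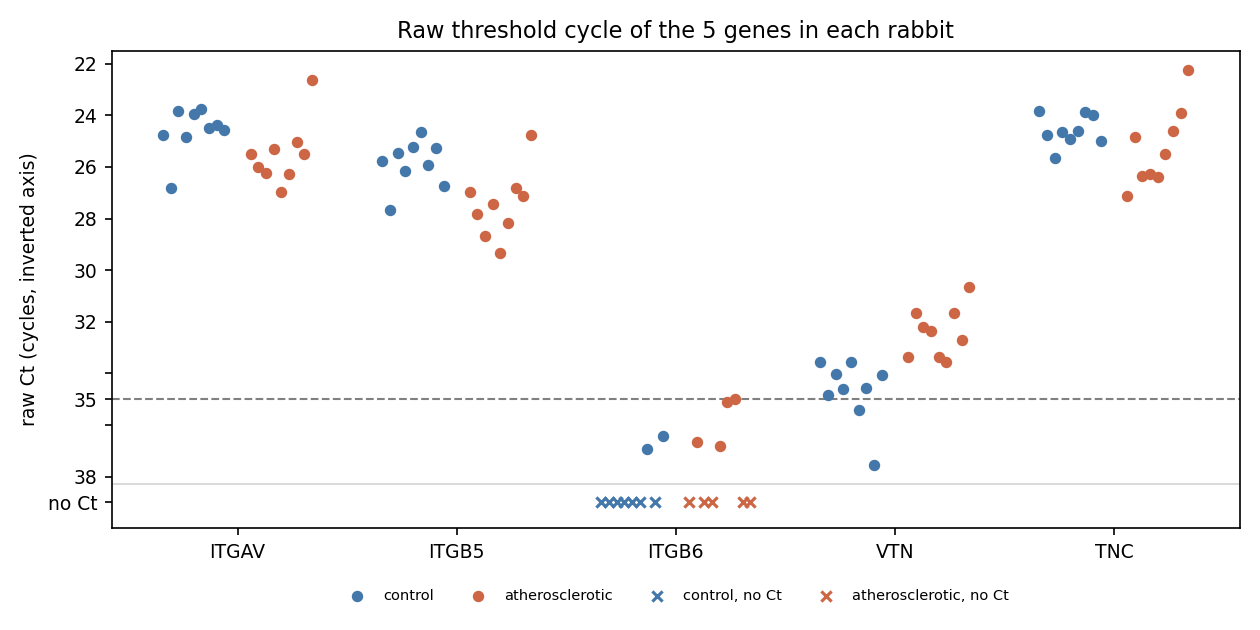
Raw Ct in cycles (inverted axis, so higher is earlier) of the 5 genes in each rabbit, blue for control and orange for atherosclerotic, with crosses for wells without a Ct and a dashed line at the ceiling of 35. All 18 ITGB6 wells lie at or past the ceiling, and VTN crossed between 30.65 and 33.54 cycles in the atherosclerotic group against 33.55 to 37.55 in the control group.

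VTN rose. Its ratio in the control rabbits ran from 0.000142 to 0.000785 with a median of 0.000308, the wells of rabbits 13 and 19 being at the ceiling. In the atherosclerotic rabbits it ran from 0.000539 to 0.00305 with a median of 0.00120, with no well at the ceiling. Of the 9 atherosclerotic rabbits, 8 lay above every control rabbit, and the exception was rabbit 20. The log2 difference was 2.01 (standard error 0.37, 95% interval 1.24 to 2.78), or 4.03-fold higher (adjusted p = 8.4e-05 from limma). The control side of this value holds the 2 limits, and it was 2.34 with late Ct values kept as deposited. In raw Ct, before any reference level, the latest atherosclerotic well of VTN crossed at 33.54 cycles and the earliest control well at 33.55. The groups did not overlap, by a narrow margin (exact permutation p = 4.1e-05, the smallest that 9 against 9 rabbits allow). VTN transcript was thus read close to the detection limit in both groups. Rabbit 20 had the earliest VTN well, at 30.65 cycles, but its reference level was also early, at 19.79 cycles. Its ratio of 0.000539 was the lowest of the atherosclerotic group and lay inside the control range. The separation in raw Ct therefore carries no correction for such shifts. How many other genes of the array separate in raw Ct was not tested.

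TNC spread widely in both groups. Its ratio was 0.324 ± 0.230 (SD, n = 9) among control rabbits, with values from 0.102 in rabbit 7 to 0.849 in rabbit 3 and a median of 0.261. Among atherosclerotic rabbits it was 0.211 ± 0.126 (SD, n = 9), from 0.0624 in rabbit 2 to 0.418 in rabbit 18 with a median of 0.183. The highest rabbit stood 8.33-fold above the lowest in the control group and 6.69-fold in the atherosclerotic group, against 2.02-fold and 2.35-fold for ITGAV. The log2 difference of -0.61 had a 95% interval from -1.49 to 0.27 and was not called (adjusted p = 0.22 from limma). It was -1.43 with ACTA2 dropped as a reference (adjusted p = 0.0085 from limma) and -1.18 with the genes below the ceiling in every rabbit as reference (adjusted p = 0.0095 from limma), both called lower. Without control rabbit 3 it was -0.40. By the same measure of likeness, the genes nearest to TNC were FGF10, a fibroblast growth factor, with an SD of 0.73 and the collagen gene COL5A1 with 0.76. ITGAV ranked 13 and ITGB5 ranked 22 for TNC.

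The receptor chains and vitronectin moved in opposite directions, so their within-rabbit differences changed by about the sum of both. ITGAV minus VTN was 9.76 ± 0.95 in control rabbits and 6.89 ± 0.81 in atherosclerotic rabbits (mean ± SD, n = 9 each). The lowest control rabbit stood at 8.02 and the highest atherosclerotic rabbit at 8.00, so the groups did not overlap, by a narrow margin. The change of -2.87 is a 7.32-fold shift of the balance from ITGAV to VTN (exact permutation p = 4.1e-05, adjusted p = 0.00016). ITGB5 minus VTN was 8.49 ± 1.04 in control rabbits and 4.94 ± 0.98 in atherosclerotic rabbits (mean ± SD, n = 9 each). Here control rabbits began at 7.19 and atherosclerotic rabbits ended at 6.42, again without overlap. The change of -3.56 is an 11.8-fold shift from ITGB5 to VTN (exact permutation p = 4.1e-05, adjusted p = 0.00016). Pairs without overlap between the groups made up 25.2% of all pairs on the array. In control rabbits 13 and 19 the VTN limit makes the difference a lower limit, and with late Ct values kept the changes were -3.20 and -3.88.

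Against tenascin C the receptor chains showed no called change. ITGB6, the beta chain named above for binding tenascin C, was not measured, so these pairs hold only ITGAV and ITGB5. ITGAV minus TNC was -0.0044 ± 1.16 in control rabbits and -0.26 ± 1.01 in atherosclerotic rabbits (mean ± SD, n = 9 each). Its change of -0.25 had a 95% interval from -1.30 to 0.79 in limma (exact permutation adjusted p = 0.67). Leaving out 1 rabbit moved that change between -0.51, without control rabbit 3, and -0.025, without control rabbit 7. ITGB5 minus TNC changed by -0.94, with an interval from -1.95 to 0.08 in limma (exact permutation adjusted p = 0.11). The intervals allow a change of more than 1 doubling, so these data do not show that the genes moved alike. Atherosclerotic rabbit 2, which had both the highest ITGB5 and the lowest TNC of its group, stood at 0.16 where the group median was -2.53. Without it the change of ITGB5 minus TNC was -1.23 and passed the threshold (exact permutation adjusted p = 0.020).

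The ligands also parted from each other. VTN minus TNC was -9.77 ± 0.91 in control rabbits and -7.15 ± 1.05 in atherosclerotic rabbits (mean ± SD, n = 9 each), a change of 2.62 or 6.14-fold towards VTN (exact permutation p = 0.00021, adjusted p = 0.00058). In 7 of the 9 atherosclerotic rabbits it lay above every control rabbit. Of the 4 measured pairs of a receptor chain and a ligand, the 2 with VTN were called and the 2 with TNC were not, and both pairs inside a class, ITGAV with ITGB5 and VTN with TNC, were called. Calls in 4 of 6 pairs are close to the 66.1% called over all pairs of the array, so their number sets these genes apart from no others.

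**Figure D3:**
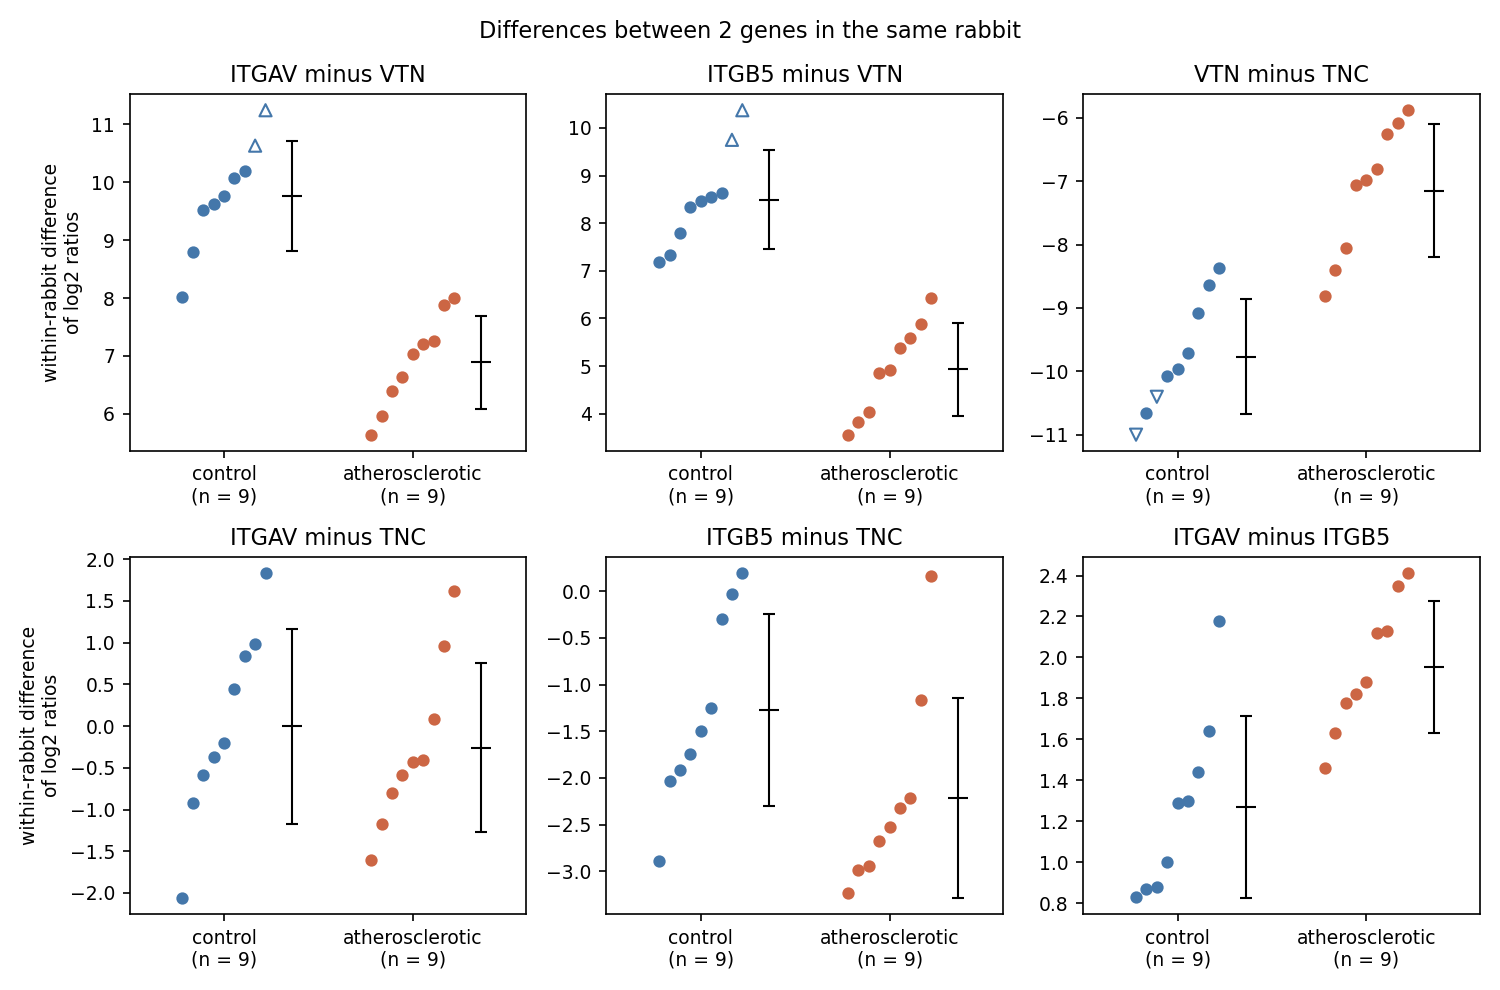
Within-rabbit difference of log2 ratios for 6 pairs of genes, 1 point per rabbit in order of value, with bars for mean ± SD and open triangles where a VTN well was at the ceiling (pointing up for a lower limit and down for an upper limit). The groups do not overlap for ITGAV minus VTN and ITGB5 minus VTN, and overlap in the other 4 panels.

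The reference genes set how far each single gene moved, but not the distances between genes. Relative to their joint level, the mean log2 ratio of ACTA2 was 3.83 in control and 0.92 in atherosclerotic rabbits. LDHA went the other way, with -4.01 and -1.48, as did GAPDH, with -0.22 and 0.89. When LDHA was dropped from the reference level, the difference was -0.99 for ITGB5, 2.56 for VTN and -0.06 for TNC. When ACTA2 was dropped, it was -1.69 for ITGAV, -2.37 for ITGB5, 1.18 for VTN and -1.43 for TNC. The median of all 84 genes moved by 0.55 without LDHA and by -0.82 without ACTA2. Relative to that median, the differences with the deposited level were -1.23 for ITGAV, -1.92 for ITGB5, 1.64 for VTN and -0.98 for TNC. ITGB5 stayed called lower and VTN called higher under all 9 other reference levels, raw Ct included. ITGAV was called lower under 7 of the 9, the exceptions being LDHA left out and raw Ct.

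**Figure D4:**
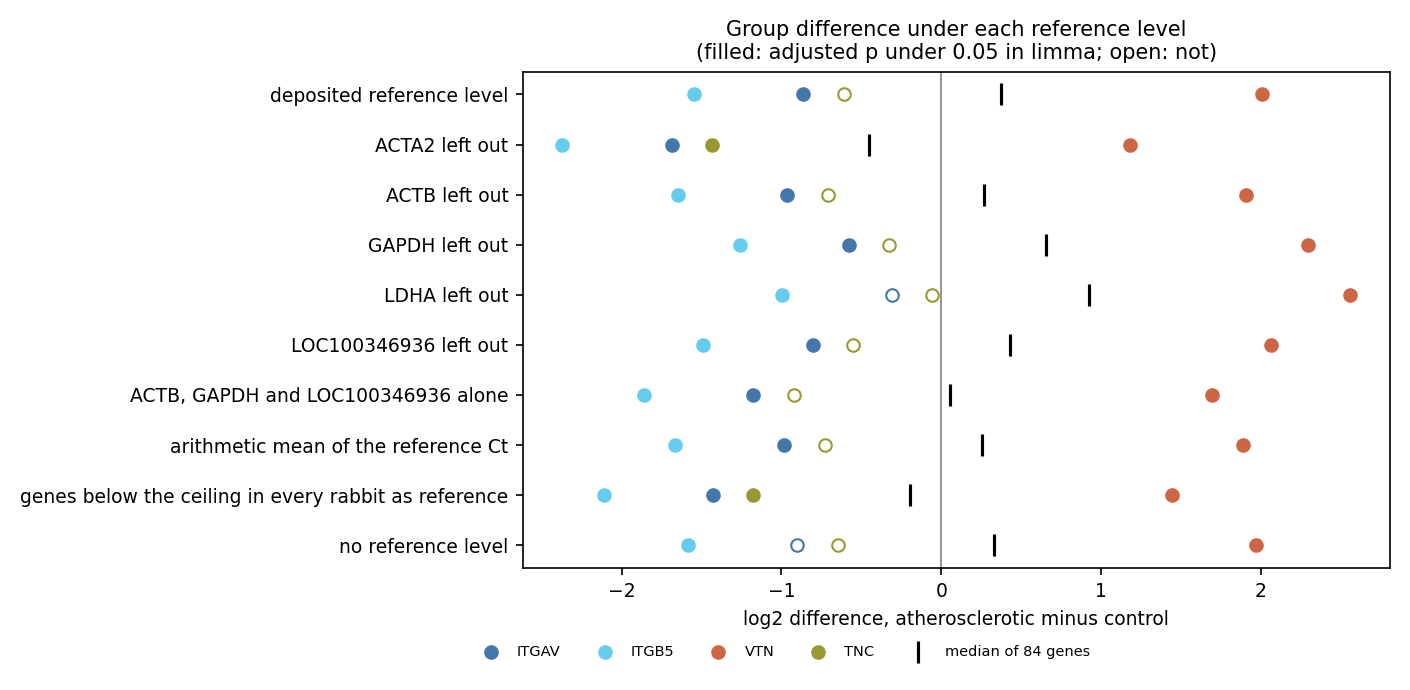
Log2 difference between the groups (horizontal axis, atherosclerotic minus control) of 4 genes under the deposited reference level and 9 others, filled where the adjusted p in limma was under 0.05, with a black tick at the median of the 84 genes. The genes shift together with the tick, ITGB5 running from -2.37 to -0.99 and VTN from 1.18 to 2.56.

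In RNA from whole tissue, fewer cells of a type and less RNA per cell cannot be told apart. The smooth muscle markers moved in the same direction as ITGAV and ITGB5. All 3 of 3 had negative log2 differences, -2.91 for ACTA2, -1.03 for ACTC1 with 7 of 9 atherosclerotic wells at the ceiling, and -2.99 for transgelin. Transgelin had the lowest difference of the 84 genes, so other genes rise relative to it, and as a description with no test ITGAV minus transgelin rose by 2.13 and ITGB5 minus transgelin by 1.44. The 5 myeloid markers TLR4, CTSK, TNF, IL1B and MMP9, all on the array, had a summed ratio of 0.467 to 0.996 in the control group and 3.33 to 7.26 in the atherosclerotic group, nearly all of it from CTSK. Of the 5, 4 were called higher, beside 38.1% of the genes of the array, and IL1B differed by 1.24 (adjusted p = 0.23 from limma). TNF alone was at the ceiling in every control rabbit. The 3 T cell markers CD40LG, IL2 and IFNG summed to 0.0796 to 0.147 in the control group and 0.0647 to 0.274 in the atherosclerotic group, mostly from IFNG. Among them CD40LG was higher by 1.77 (adjusted p = 0.0063 from limma), IL2 was lower with -2.05 (adjusted p = 2.1e-05 from limma), and IFNG differed by -0.10 (adjusted p = 0.74 from limma). The part of these cell types in the differences of ITGAV, ITGB5 and VTN was not tested.

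Other integrin chains went both ways. Of the 8 listed, 6 were on the array, and 3 were called higher and 3 lower, with a median difference of 0.22 beside 0.37 for the array, where 38.1% were called higher and 22.6% lower. When ACTA2 was dropped as a reference 2 were called higher and 3 lower, and when LDHA was dropped 3 higher and 2 lower. The largest rise was that of ITGA4, the alpha 4 chain of leukocyte integrins, with 4.06 (adjusted p = 1.2e-07 from limma). Its ratio ran from 0.000418 to 0.00389 in the control rabbits and from 0.0117 to 0.0954 in the atherosclerotic rabbits. ITGA6, a laminin receptor chain, rose by 2.08 and ITGA2, a collagen receptor chain, by 1.39. The largest fall was that of ITGA1, a collagen receptor chain of smooth muscle, with -1.58 (adjusted p = 2.6e-05 from limma), close in size to ITGB5. ITGA5, the fibronectin receptor chain, fell by 1.24 and ITGB1 fell by 0.96 on the log2 scale. The chains ITGA3 and ITGB3 were not analysed here.

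Among the proteins that bind vitronectin or its receptors at the cell surface, PLAU, the urokinase plasminogen activator, rose by 3.37 (adjusted p = 7.4e-10 from limma). Its receptor PLAUR, which also binds vitronectin, differed by 2.32 with a standard error of 1.01 and was not called (adjusted p = 0.053 from limma). With LDHA dropped as a reference, both were called higher.

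The latent TGF beta proteins that carry the RGD motif are bound by alpha v receptors. TGFB1 rose by 0.83 (adjusted p = 0.0023 from limma), a call that was lost when ACTA2 was dropped from the reference genes. TGFB3 fell by 2.15 (adjusted p = 9.9e-06 from limma), and the median of the pair was -0.66. Of 5 signalling genes under integrins on the array, 1 was called higher and 1 lower, beside 38.1% and 22.6% of the array, with a median of 0.26 beside 0.37. MAPK3, the kinase ERK1, rose by 1.01, and PTK2, the focal adhesion kinase, fell by 0.50 on the log2 scale (adjusted p = 0.035 from limma). When ACTA2 was dropped as a reference, 0 of these 5 were called higher and 3 lower, and with LDHA left out 3 higher and 0 lower. The whole array moved the same way, with 22 of its 84 genes called higher and 34 lower without ACTA2, and 47 higher and 10 lower without LDHA.

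Of the other matrix genes, 6 of 11 listed were on the array, with 2 called higher, 0 lower and a median of 0.45, near the 38.1% of the array called higher. When ACTA2 was dropped as a reference, 1 was called higher and 3 lower, beside 22 and 34 of the 84 genes of the array. When LDHA was dropped, 3 were called higher and 0 lower, beside 47 and 10 of the array. COL5A3 differed most, with 3.07 (adjusted p = 5.0e-05 from limma) and 2 control wells at the ceiling, followed by COL1A2, a chain of type I collagen, with 1.61. COL4A3, a basement membrane collagen, had the lowest value, -0.67 (adjusted p = 0.28 from limma). VTN rose by more than COL1A2 on the log2 scale and by less than COL5A3, and those differences from VTN were not tested.

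**Figure D5:**
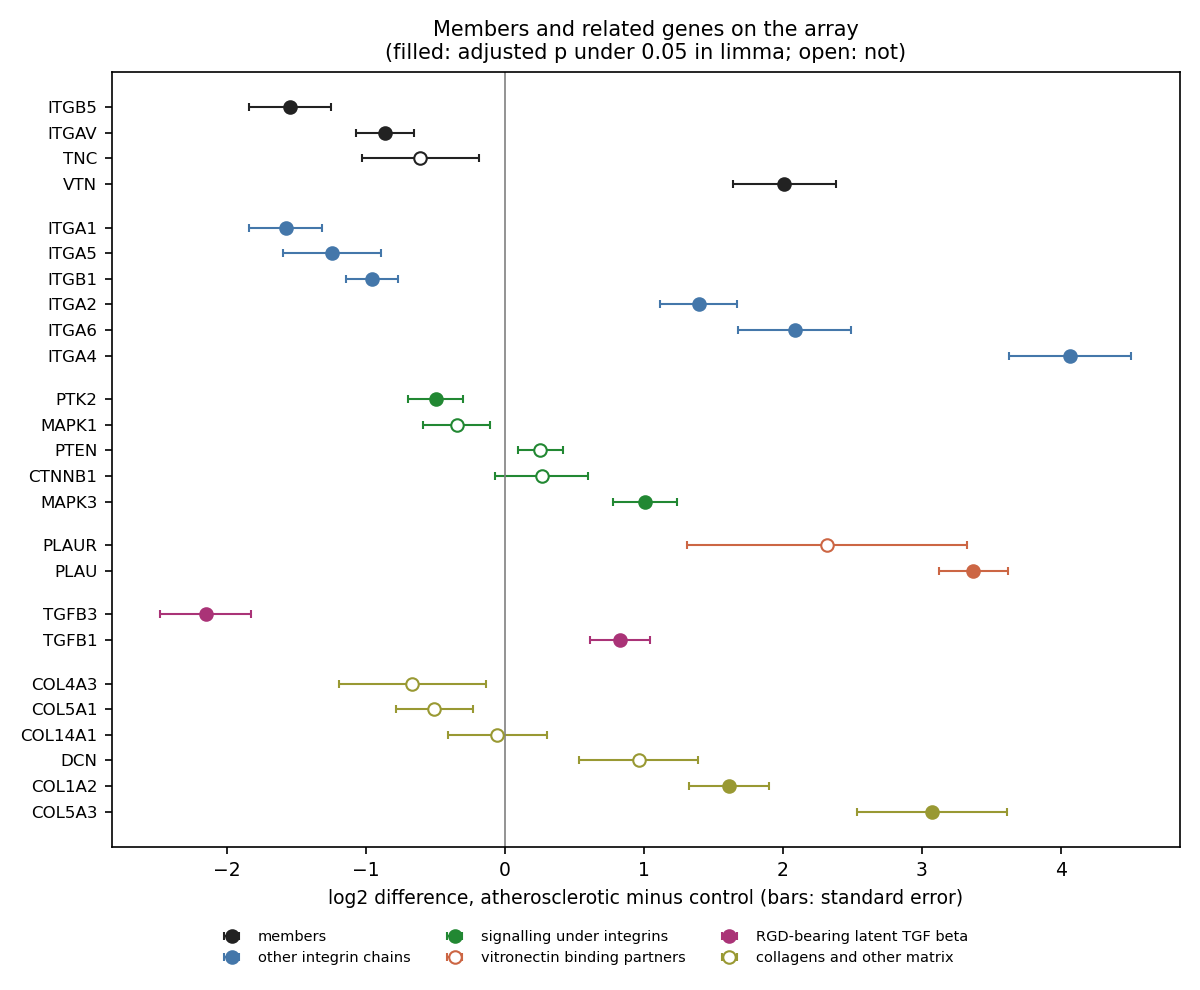
Log2 difference between the groups (horizontal axis, atherosclerotic minus control, bars for the standard error) of the 4 measured genes and of related genes on the array, coloured by list and filled where the adjusted p in limma was under 0.05. ITGB5 at -1.55 lies close to ITGA1 at -1.58, VTN at 2.01 close to ITGA6 at 2.08, and ITGA4 has the highest value of all at 4.06.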

How the data were processed

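RNA was extracted from the lower abdominal aorta with TRIzol, transcribed into cDNA and read with SYBR green on a Mx3000P instrument. The authors deposited the raw Ct of each well and the ratio (2 raised to minus deltaCt) to the 5 reference genes ACTA2, ACTB, GAPDH, LDHA and LOC100346936. The deposited ratio matched a Ct held at 35 and a geometric mean over the reference genes, within 0.023 on the log2 scale for the members, the largest gaps lying at low ratios that were rounded. The authors' table of fold changes was not used, and 1 gene of the lists is not reported here. Groups and rabbit numbers came from the sample titles.

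The log2 ratio of all 84 genes was compared with limma, without covariates, with Benjamini-Hochberg adjustment and a threshold of 0.05. For within-rabbit differences, the permutation tests were exact and two-sided, over 48620 assignments and adjusted over 3486 pairs. The genes named are the members, the listed genes, the cell type markers and, by the SD of within-rabbit differences, the 2 genes most alike. The members and lists were chosen with earlier results of these data known. Alternatives were other reference levels, late wells, tests, scales and rabbits left out. The tests were also tried on simulated data.

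Of the RefSeq accessions of the 5 members, 3 matched the gene table of RefSeq for rabbit (mOryCun1.1), and all 5 symbols did. No batch is named in the labels, and p-values measure the spread between rabbits. The tools were limma 3.58.1 in R 4.3.3, and scipy 1.17.1, pandas 2.3.3, matplotlib 3.10.9 and numpy 2.4.6 in Python 3.11.15.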

Additional observations from a re-analysis of the deposited data

Results flagged for a closer look

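Of 20 sets of 9 values examined, the log2 ratios of 4 genes and the differences of 6 pairs in each group, 0 held a rabbit far from the others, where chance gives about 1.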

How the results depend on the processing

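Over 33 alternatives on the log2 scale, the calls of ITGB5 and VTN kept their direction and side of the threshold in all 33, and those of ITGAV and TNC in 31. ITGAV was not called with LDHA dropped as a reference (-0.31) or with raw Ct (-0.90). TNC was called lower with ACTA2 left out (-1.43) and with the mean of the 63 genes below the ceiling in every rabbit as reference (-1.18). Changing the reference level moves every gene of a rabbit by the same amount, and for raw Ct the cause of the lost call was not tested. Leaving out each rabbit in turn moved ITGAV between -0.95 and -0.79, ITGB5 between -1.67 and -1.43, VTN between 1.85 and 2.18 and TNC between -0.78 and -0.40, with no change of call. Over 21 alternatives, 5 of the 6 pairs kept their call. ITGB5 minus TNC ran from -1.23 without atherosclerotic rabbit 2, where it passed the threshold, to -0.75 without control rabbit 7. Leaving out control rabbit 3 and atherosclerotic rabbit 20 together gave -0.90, -1.51, 2.33 and -0.41 for ITGAV, ITGB5, VTN and TNC. The methods' t-test gave 53 genes of the array at an unadjusted p under the threshold and 49 after adjustment, limma 51 and the exact tests 49. Among the lists, leaving out ACTA2 gave 0 signalling genes called higher and 3 lower, 0 latent TGF beta genes higher, and 1 matrix gene higher and 3 lower. Leaving out LDHA gave 3 signalling genes higher and 0 lower, and 2 vitronectin partners higher. The 1 well per gene and the ceiling at Ct 35 limit VTN in the control group and all values of ITGB6.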
